A study of Mus musculus with 26 samples.

Results

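The genes described here are the classical axon guidance ligands and receptors: the semaphorins with their plexin and neuropilin receptors, the ephrins with their Eph receptors, the Slits with their Robo receptors, and the netrins and netrin-Gs with the Unc5 receptors. They were chosen by gene symbol (Sema, Plxn, Nrp, Efna, Efnb, Epha, Ephb, Slit, Robo, Ntn, Ntng or Unc5 followed by the family number or letter, Slitrk genes left out), which gave 69 of 18194 genes, and each gene was read from its brightest probe set, on average over the arrays. A filter on dim probe sets (mean log2 value of at least 4.33, the 30th percentile) kept 67 of the 69 genes and 14941 genes in all. Ntn3 and Robo2 did not pass it: Ntn3 lay between 3.68 and 4.65 and Robo2 between 2.59 and 3.30 on all arrays. Ephb2 had no probe set with a single symbol and was not analysed here.

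The study measured gene expression in aged mouse brain on 26 Affymetrix arrays, 13 of entorhinal cortex (EC) and 13 of hippocampus (HC). In each region there were 4 arrays of APP transgenic mice given BDNF lentivirus, 4 of APP transgenic mice given GFP lentivirus, 2 of non-transgenic (NT) mice given GFP lentivirus and 3 of non-transgenic mice with a sham lesion. The virus was infused entorhinally, 4 weeks before the tissue was collected, so the hippocampal arrays show tissue away from the infusion. APP is the amyloid precursor protein, BDNF is brain-derived neurotrophic factor, and GFP marks the control virus. No group combined non-transgenic mice with BDNF, and the labels name neither the transgene's line nor its promoter. The labels call the replicates biological and do not say which arrays of the 2 regions came from 1 animal.

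Guidance molecules steer growing axons by attraction or repulsion during development, and many stay expressed in adult neurons, where they act on dendritic spines and synapses. Semaphorins signal through plexins, the secreted class 3 members mostly with a neuropilin as the binding partner. Ephrins and Eph receptors meet at contacts between cells and can signal in both directions. Slits repel axons through Robo receptors, and netrins attract through Dcc and repel through Unc5 receptors. The entorhinal cortex sends the perforant path to the dentate gyrus and hippocampus, so these are the source and the target of a single projection.

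All values are log2 values after RMA, a method that sets arrays to a common distribution, and array medians lay between 5.51 and 5.58. A difference of 1 is a doubling, and values of different probe sets are not compared as levels. The dissections could be told apart by marker genes: the mean of 8 dentate and hippocampal markers was 6.80 to 7.24 on entorhinal arrays and 8.81 to 9.31 on hippocampal arrays. The mean of 7 cortical markers was 8.47 to 8.85 on entorhinal arrays and 8.15 to 8.33 on hippocampal arrays, with Lmo3, Fezf2 and Rspo1 of that list lower in EC on average. Single markers differed more: Prox1, a transcription factor of dentate granule cells, lay between 4.21 and 5.67 in EC and between 6.57 and 7.96 in HC, whereas Wfs1, on the hippocampal list, averaged 11.09 in EC and 10.30 in HC. Myelin markers were lower in EC (list mean 7.76 to 9.57) than in HC (10.01 to 10.74). Choroid plexus markers averaged 8.80 on hippocampal sham array 1 and no more than 5.97 on the other hippocampal arrays. In bulk tissue, fewer cells of a type and less RNA per cell cannot be told apart.

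The upstream sequences of 2 ligand and receptor pairs that lay on opposite sides between the regions are shown, so that the genes behind the largest differences can be placed in the genome. They are the 250 bases before the listed transcript start, 5′ to 3′ on the gene's strand, from RefSeq (GRCm38.p6), with matches to the GC box (GGGCGG or CCGCCC) in capitals. Sema3a is on the plus strand, chr5:13396534-13396783, Nrp1 on the plus strand, chr8:128358823-128359072, Sema3e on the plus strand, chr5:14025026-14025275, and Plxnd1 on the minus strand, chr6:115995006-115995255. For Nrp1 and Plxnd1 the listed start lies inside the gene's annotated span, near its 5′ end. For Sema3a it lies far inside the span (chr5:13124822-13603485), so that stretch is not the sequence before the gene's 5′ end.
Sema3a: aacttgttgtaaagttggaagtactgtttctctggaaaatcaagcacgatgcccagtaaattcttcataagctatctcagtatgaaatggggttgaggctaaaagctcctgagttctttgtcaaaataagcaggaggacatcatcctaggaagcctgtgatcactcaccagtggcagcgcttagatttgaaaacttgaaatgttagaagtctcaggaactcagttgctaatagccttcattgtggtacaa
Nrp1: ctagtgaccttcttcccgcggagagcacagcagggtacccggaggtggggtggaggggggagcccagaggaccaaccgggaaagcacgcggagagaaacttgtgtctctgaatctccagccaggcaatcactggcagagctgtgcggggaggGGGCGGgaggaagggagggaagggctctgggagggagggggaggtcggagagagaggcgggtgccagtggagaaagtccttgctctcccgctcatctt
Sema3e: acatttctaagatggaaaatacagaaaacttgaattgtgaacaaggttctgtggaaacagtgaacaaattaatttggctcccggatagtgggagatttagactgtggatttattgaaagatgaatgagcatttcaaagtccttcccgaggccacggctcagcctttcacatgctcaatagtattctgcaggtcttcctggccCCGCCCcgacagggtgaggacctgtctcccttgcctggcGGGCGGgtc
Plxnd1: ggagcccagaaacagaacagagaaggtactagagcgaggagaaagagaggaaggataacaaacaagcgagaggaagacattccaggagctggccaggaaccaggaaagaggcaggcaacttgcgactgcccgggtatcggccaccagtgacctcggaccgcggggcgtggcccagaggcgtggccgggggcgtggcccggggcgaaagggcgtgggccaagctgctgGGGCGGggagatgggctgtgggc

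The Sema3a stretch held no GC box and had 40.8% G or C with 2 CG pairs, whereas that of Nrp1 held 1 box, 64.4% G or C and 11 CG pairs. The Sema3e stretch held 2 boxes, 48.0% G or C and 7 CG pairs, and that of Plxnd1 held 1 box, 64.8% G or C and 16 CG pairs. Among the 60 members with an entry, 44 (73.3%) held a GC box on either strand, against 32.9% of 27025 listed promoters and 42.7% of the 17491 protein-coding ones. The cAMP response element TGACGTCA was found in 1 member promoter, that of Epha2 (1.67%, against 1.62% of all promoters), and the letters TATAAA or their complement in 2, those of Efnb2 and Slit2 (3.33%, against 13%). The E-box CAGATG was found in 5 (8.33%, against 14.5%). A match describes these letters in this window and is not shown to be a site.

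The regions differed widely in these genes. Over all groups, 49 of the 67 tested members (73.1%) passed the test for a difference between EC and HC (limma, Benjamini-Hochberg adjusted p under 0.05 over all genes), against 51.8% of all genes tested. Of these, 17 were higher in EC (20.6% of all genes were) and 32 were lower (31.3% of all genes were). The median size of the difference was 0.37 for the members and 0.14 for all genes. A difference over 1, in either direction, was found for 13 members (19.4%), 6 higher and 7 lower in EC, against 2.95% of all genes. The 13 entorhinal and 13 hippocampal arrays did not overlap for 19 members, 7 higher and 12 lower in EC, and this held for 10.6% of all genes (4% higher and 6.63% lower). The calls comprised 27 of 36 ligands and 22 of 31 receptors.

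**Figure D1:**
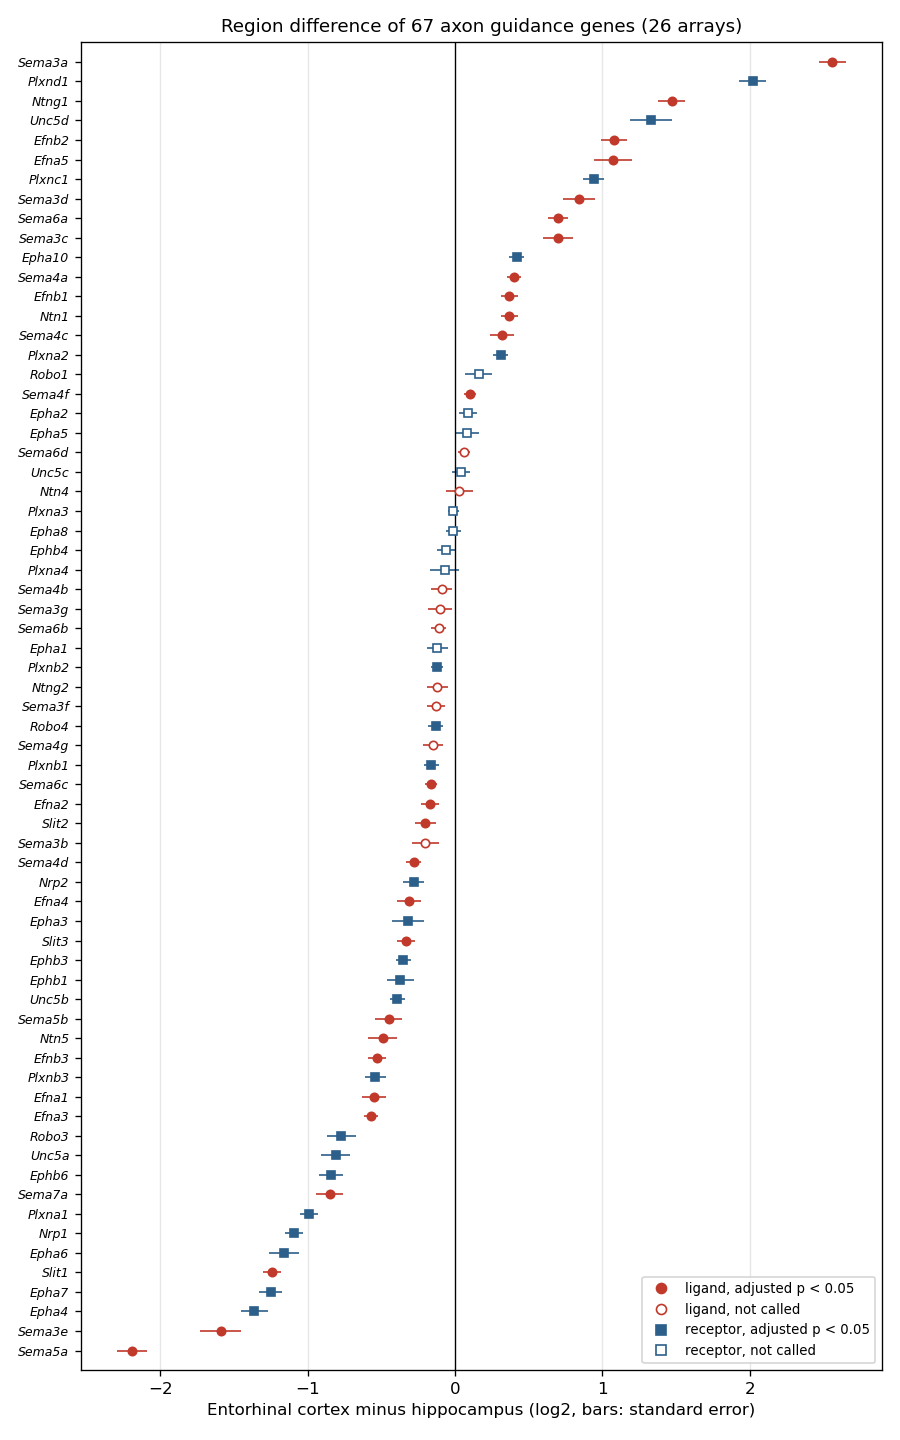
Difference between entorhinal cortex (EC) and hippocampus (HC) for the 67 tested axon guidance genes, in log2 units on the x axis with the standard error as bars; circles are ligands, squares are receptors and filled symbols passed the test. Sema3a (2.56) and Plxnd1 (2.02) lie at the EC end, Sema5a (-2.19) and Sema3e (-1.59) at the HC end, and 18 genes are open.

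Among the secreted class 3 semaphorins, the ligand with the largest difference was Sema3a, which repels axons through Nrp1 and A-type plexins. Sema3a was 8.12 at its lowest, 8.57 at the median and 8.94 at its highest on entorhinal arrays, against 5.70, 6.03 and 6.30 on hippocampal arrays. No entorhinal array came near a hippocampal one. The difference was 2.56 ± 0.09 (SE, 13 arrays per region), a 5.91-fold higher value in EC (adjusted p 1.23e-15, limma). Its binding receptor Nrp1 ran the other way, with 9.42, 9.71 and 9.94 in EC against 10.52, 10.79 and 11 in HC, a difference of -1.09 ± 0.06 (adjusted p 8.53e-13). Nrp2, the neuropilin that prefers Sema3f, was lower in EC by less (-0.28 ± 0.07, adjusted p 0.000914) and its arrays overlapped. Sema3f itself did not pass the test (-0.13 ± 0.06, adjusted p 0.0753).

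The plexins that transmit class 3 signals did not move as a group. Plxna1 was 7.29, 7.63 and 8.05 in EC against 8.43, 8.66 and 8.80 in HC, a difference of -0.99 ± 0.06 (adjusted p 2.06e-11) with no overlap. Plxna2 was higher in EC by 0.31 ± 0.05 (adjusted p 9.77e-06). Plxna3 (-0.01 ± 0.04) and Plxna4 (-0.07 ± 0.10, adjusted p 0.615) did not pass the test on their brightest probe sets. With the mean of all probe sets of a gene, both were called. The other secreted ligands higher in EC were Sema3d (0.84 ± 0.11) and Sema3c (0.70 ± 0.10), each with overlapping arrays.

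Sema3e and Plxnd1 form a pair in which the ligand binds the plexin directly, without a neuropilin. The receptor Plxnd1 was 8.48, 8.67 and 9.20 in EC against 6.33, 6.71 and 7.28 in HC, a difference of 2.02 ± 0.09 or 4.06-fold (adjusted p 2.95e-14). The ligand Sema3e was 6.95, 8.24 and 8.55 in EC against 9.20, 9.55 and 9.96 in HC, a difference of -1.59 ± 0.14 or 3.01-fold lower (adjusted p 2.16e-09). Neither gene's arrays overlapped between regions, so every entorhinal array had more Plxnd1 and less Sema3e than any hippocampal array. Sema3e was also among the most variable members within groups (pooled SD 0.36, against a median of 0.17 over the members), with EC NT GFP array 2 lowest.

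Sema7a, a membrane-anchored semaphorin, and its receptor Plxnc1 were also split. Plxnc1 was 10.17, 10.55 and 10.77 in EC against 9.24, 9.61 and 9.87 in HC, a difference of 0.94 ± 0.07 (adjusted p 1.06e-10). Sema7a was 8.33, 8.52 and 9.16 in EC against 9.15, 9.43 and 9.76 in HC, a difference of -0.85 ± 0.09 (adjusted p 2.62e-08). The Sema7a ranges touched only through 1 transgenic GFP array of EC, at 9.16.

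**Figure D2:**
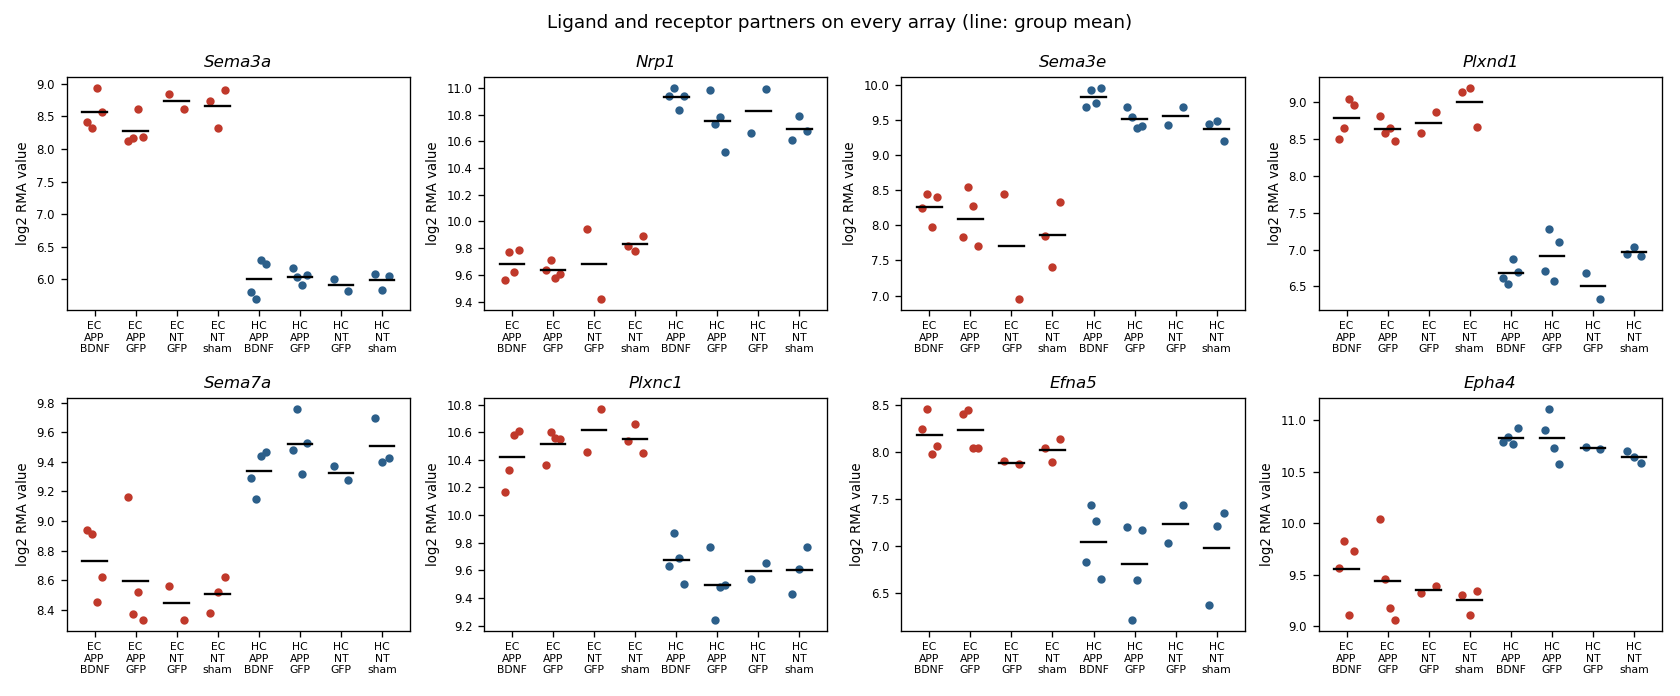
Log2 RMA values on every array for 4 ligands and their receptors, by group (red, EC; blue, HC; line, group mean); the y axis differs between panels. Sema3a, Plxnd1, Plxnc1 and Efna5 are higher in EC, and Nrp1, Sema3e, Sema7a and Epha4 lower, in each of the 4 conditions.

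Among the transmembrane semaphorins, Sema5a and Sema6a differed in opposite directions. Sema5a, which carries thrombospondin repeats and is known in mice to limit synapses on dentate granule cells, was 5.79, 6.45 and 6.81 in EC against 8.40, 8.57 and 9.13 in HC. The difference was -2.19 ± 0.10, or 4.56-fold lower in EC (adjusted p 4.76e-14), with no overlap. Sema6a, a ligand of Plxna2 and Plxna4, was 6.59, 7.07 and 7.29 in EC against 6.09, 6.35 and 6.51 in HC (0.70 ± 0.07, adjusted p 7.23e-09). Sema6a and Plxna2 were thus both higher in EC, while Sema4d (-0.28 ± 0.05, adjusted p 0.000146) and its receptor Plxnb1 (-0.16 ± 0.05, adjusted p 0.00854) were both lower. With the mean of myelin markers as a covariate, Plxna2 (0.11 ± 0.09), Sema4d (-0.06 ± 0.10) and Plxnb1 (-0.14 ± 0.10) were not called. Plxnb1 was also not called within either genotype, nor with the mean of all its probe sets. Plxnb3, a plexin known from oligodendrocytes, was lower by 0.54 on the log2 scale in EC (SE 0.07) without overlap.

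In the ephrin and Eph families 7 of 13 receptors were lower in EC (31.3% of all genes were) and 1 was higher (Epha10, 0.42 ± 0.05; 20.6% of all genes were higher). Epha4, which binds ephrins of both classes, was 9.06, 9.34 and 10.04 in EC against 10.57, 10.74 and 11.11 in HC (-1.36 ± 0.09, adjusted p 7.4e-11). Epha7 was 8.62, 9.08 and 9.29 in EC against 9.86, 10.27 and 10.78 in HC (-1.25 ± 0.08, adjusted p 2.3e-11). Epha6 was 6.80, 7.40 and 7.89 in EC against 8.35, 8.45 and 8.86 in HC (-1.16 ± 0.10, adjusted p 2.11e-09). None of these 3 receptors overlapped between regions, whereas Epha5 did not pass the test (0.08 ± 0.08, adjusted p 0.426). Ephb6, a receptor without kinase activity, was also lower (-0.84 ± 0.08), as were Ephb1 (-0.37 ± 0.09) and Ephb3 (-0.35 ± 0.05). With the mean of myelin markers as a covariate, Ephb1 (-0.01 ± 0.16, adjusted p 0.985) and Epha3 (0.24 ± 0.18, against -0.32 ± 0.11 without it) were not called.

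All 8 ephrins passed the test (51.8% of all genes did), 3 higher and 5 lower in EC. With the myelin covariate Efnb1 (0.20 ± 0.13, adjusted p 0.267), Efna2 (adjusted p 0.257) and Efna4 (adjusted p 0.385) lost their calls. The Efna2 difference was -0.20 ± 0.13 with the covariate and -0.17 ± 0.06 without it, so only its standard error grew much. That of Efna4 was -0.21 ± 0.17 with it and -0.31 ± 0.08 without it. Efna5, a lipid-anchored ligand of the EphA receptors, was 7.87, 8.04 and 8.46 in EC against 6.21, 7.17 and 7.44 in HC (1.07 ± 0.13, adjusted p 3.37e-07). The transmembrane ligand Efnb2 was 10.10, 10.45 and 10.64 in EC against 8.81, 9.38 and 9.74 in HC (1.08 ± 0.09, adjusted p 8.54e-10). Both were apart on all arrays, and the third ephrin higher in EC was Efnb1 (0.37 ± 0.06). Efna3 (-0.57 ± 0.05), Efna1 (-0.55 ± 0.08) and Efnb3 (-0.53 ± 0.06) were the ephrins lower by the most. So Efna5 was higher in EC where Epha4, Epha6 and Epha7 were lower, and Efnb3 was lower together with Ephb3 and Ephb6. The other ephrin-A genes, Efna1, Efna2, Efna3 and Efna4, were lower in EC like these EphA receptors.

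The 3 Slits, repellents that bind Robo receptors, were all lower in EC. Slit1 was 8.41, 8.80 and 9.18 in EC against 9.87, 9.99 and 10.20 in HC, a difference of -1.24 ± 0.06 (adjusted p 3.39e-13) with no overlap. Slit3 (-0.33 ± 0.06) and Slit2 (-0.20 ± 0.07, adjusted p 0.0204) differed by less. Their receptor Robo1 did not pass the test (0.16 ± 0.09, adjusted p 0.165), whereas Robo3 was lower in EC (-0.77 ± 0.10). Robo3 was dim, with a mean of 4.25 in EC, under the filter value of 4.33, and of 4.99 in HC. It thus passed the filter through its hippocampal values, and a filter at the 50th percentile (5.56) removed it.

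Netrin-G1, encoded by Ntng1, is a lipid-anchored relative of the netrins that does not use netrin receptors and is known from perforant path axons in mice. Ntng1 was 9.72, 10.24 and 10.63 in EC against 8.39, 8.74 and 9.10 in HC. The difference was 1.47 ± 0.09, or 2.78-fold higher in EC (adjusted p 7.65e-12), with no overlap. Its paralog Ntng2 did not pass the test (-0.12 ± 0.07, adjusted p 0.174). Ntng2 was dim, with means of 4.81 in EC and 4.93 in HC, against the filter value of 4.33. With the myelin covariate Ntng2 was called lower in EC (-0.53 ± 0.11, adjusted p 0.00123, limma). Lrrc4c, which encodes the netrin-G1 ligand, was higher in EC by 0.49 ± 0.05 (adjusted p 4.59e-08).

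Of the secreted netrins, Ntn1 was higher in EC (0.37 ± 0.06) and Ntn5 lower (-0.49 ± 0.10). The Unc5 receptors, which convert the netrin response to repulsion, split 3 ways. Unc5d was 8.57, 9.48 and 10.13 in EC against 7.51, 8.21 and 8.69 in HC, a difference of 1.33 ± 0.14 (adjusted p 4.65e-08) with some overlap. Unc5a was lower without overlap (-0.81 ± 0.10), Unc5b was lower by 0.39 on the log2 scale, and Unc5c did not pass the test (0.04 ± 0.06). Dcc, the attractive netrin receptor, did not pass the test either (0.15 ± 0.09, adjusted p 0.161).

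Genes that act with or downstream of these families were read from a list of 77, of which 73 were tested. In the region comparison 56 of the 73 (76.7%) passed the test, against 51.8% of all genes, with 28 higher and 28 lower in EC (20.6% and 31.3% of all genes). The largest entorhinal excess was that of Flrt1 (1.06 ± 0.07), a fibronectin and leucine-rich repeat adhesion protein of the family that binds Unc5 receptors. It was followed by the receptor kinase gene Met (0.83 ± 0.17), the exchange factor Ngef, which acts downstream of EphA receptors (0.75 ± 0.04), and the GTPase Rnd1, which binds plexins (0.71 ± 0.07). The largest deficits were those of the proteoglycan Gpc1 (-1.12 ± 0.06), Arhgap39, a GTPase-activating protein linked to Robo signalling (-1.02 ± 0.04), Rgmb, a ligand of the netrin receptor relative neogenin (-0.92 ± 0.07), and the actin-binding Ablim3 (-0.86 ± 0.07). None of the 73 was called (limma) in a comparison of treatments or genotypes.

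Because myelin markers differed between the regions, the region comparison was also fitted with the myelin list mean of each array as a covariate; this fit was added after the data had been seen. It called 32 of 67 members, against 26.9% of all genes, 11 higher (9.48% of all genes) and 21 lower (17.4%) in EC. Of the 49 calls, 29 were kept. The myelin means of the regions did not overlap (7.76 to 9.57 in EC, 10.01 to 10.74 in HC), so the covariate runs closely with region. Standard errors grew with it, as for Efna2 (0.13, against 0.06 without it). A lost call is therefore not by itself a smaller difference. All 15 members that were named for the largest differences with arrays apart were called in the same direction. Sema3e (-1.03 ± 0.26) and Plxnc1 (0.60 ± 0.11) were among them with smaller differences than without the covariate. Unc5d (0.49 ± 0.21, adjusted p 0.0939), Plxnb3 (-0.08 ± 0.09, adjusted p 0.55), Sema4d (-0.06 ± 0.10, adjusted p 0.686), Ntn1 (0.12 ± 0.11, adjusted p 0.493) and Plxna2 (0.11 ± 0.09, adjusted p 0.40) were among the calls lost. Epha3 and Sema4f changed sign. The choice of probe set bore on the sizes: with the mean of all probe sets of a gene, the difference was -0.83 for Sema5a, 0.81 for Ntng1, -0.54 for Plxna1, 0.50 for Efna5 and for Efnb2, and 0.30 for Sema6a, each still called. The other probe sets of the called members mostly read alike: of 53 that passed the filter, 47 had the same sign (39 called) and 6 the opposite sign (0 called).

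The region difference was then taken within each genotype. In transgenic mice 43 of 67 members were called (44.3% of all genes), 17 higher (17.9% of all genes) and 26 lower (26.5%) in EC. In non-transgenic mice 38 were called (34.7% of all genes), 15 higher (13.3%) and 23 lower (21.5%). There were 37 members called in both genotypes, all in the same direction. Sema3a differed by 2.39 ± 0.11 in transgenic and 2.74 ± 0.14 in non-transgenic mice, Plxnd1 by 1.92 ± 0.11 and 2.13 ± 0.14, and Sema5a by -2.25 ± 0.12 and -2.13 ± 0.15. The test of the difference between genotypes called 0 members and 0 of all genes (limma, smallest adjusted p among members 0.922). It gave 2 members an unadjusted p under 0.05 (2.99%, against 5.27% of all genes). The smallest unadjusted p values were those of Sema4a (-0.32 ± 0.10), Robo1 (-0.39 ± 0.18) and Epha6 (-0.40 ± 0.20). Over the 4 conditions taken singly, 47 of the 49 called members had the same sign in all, the exceptions being Sema6c (0.01 in the non-transgenic GFP arrays) and Slit2 (0.09 in the transgenic GFP arrays).

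**Figure D3:**
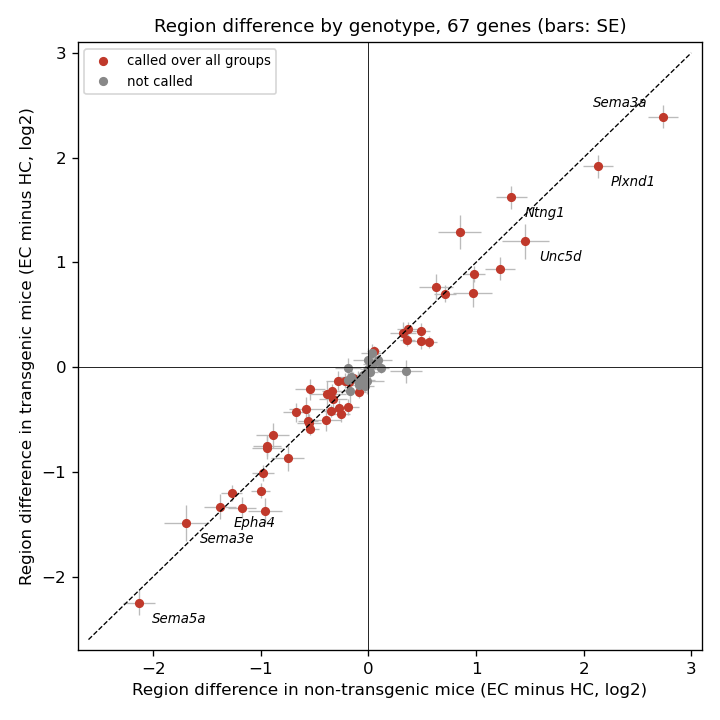
Region difference (EC minus HC, log2) of 67 genes in transgenic mice on the y axis and in non-transgenic mice on the x axis, with standard errors as bars and the line of equality dashed; red genes were called over all groups. The 49 called genes have the same sign in both genotypes.

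Against this, the treatments and the transgene moved the members little. BDNF was compared with GFP within transgenic mice. In EC, 0 of 67 members were called (0% of all genes), and 4 had an unadjusted p under 0.05 (5.97%, against 3.88% of all genes). Differences lay between -0.37 and 0.29 with a median SE of 0.13. Plxnb2, a receptor of class 4 semaphorins, was 8.11, 8.08, 7.98 and 7.94 on BDNF arrays against 7.84, 7.86, 7.92 and 7.92 on GFP arrays. The groups did not overlap, and the difference was 0.14 ± 0.06 (adjusted p 0.998, limma). Sema4a was 8.45, 8.41, 8.46 and 8.45 on BDNF arrays against 8.56, 8.49, 8.63 and 8.59 on GFP arrays, again without overlap (-0.12 ± 0.06). Robo3 was 4.27, 3.81, 4.36 and 4.13 on BDNF arrays against 4.59, 4.24, 4.57 and 4.66 on GFP arrays (-0.37 ± 0.15), with overlap and near the filter on dim probe sets.

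In HC, BDNF again gave 0 called members (0% of all genes) and 6 at an unadjusted p under 0.05 (8.96%, against 5.31% of all genes). Differences lay between -0.31 and 0.51. The 2 Slits with the smallest p went opposite ways. Slit2 was 8.47, 8.74, 8.62 and 8.63 on BDNF arrays against 8.36, 8.10, 8.30 and 8.47 on GFP arrays (0.31 ± 0.10). The groups did not overlap, and the tie at 8.47 comes from rounding. Slit3 was 6.31, 6.07, 6.56 and 6.53 on BDNF arrays against 6.64, 6.70, 6.57 and 6.79 on GFP arrays (-0.31 ± 0.10), without overlap. Sema3e was 9.68, 9.93, 9.74 and 9.96 on BDNF arrays against 9.69, 9.55, 9.39 and 9.42 on GFP arrays (0.31 ± 0.10, adjusted p 0.901, limma). The BDNF arrays were thus above the GFP arrays for Slit2, mostly above them for Sema3e and below them for Slit3. None of the 3 genes passed the test. Whether BDNF acted differently in EC and HC was tested directly and called 0 members (0% of all genes). The smallest unadjusted p values there were those of Epha10 (0.36 ± 0.13), Slit2 (-0.43 ± 0.17) and Unc5d (-0.81 ± 0.34, adjusted p 0.996).

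The transgene was assessed on GFP arrays, which are the same transgenic arrays that served BDNF as controls. Xist, a transcript of female cells, was 10.38 to 10.89 on non-transgenic arrays of both regions. It was 5.38 to 5.45 on transgenic GFP arrays 1 and 3 of EC and 2 and 4 of HC. It was 5.58 to 6.01 on transgenic BDNF arrays 2 and 3 of EC and 3 and 4 of HC. The other transgenic arrays lay at 10.6 to 11.01. With Xist as a covariate, the comparisons between genotypes called 0 members. Without the covariate, the transgene called 0 members in EC (0.0134% of all genes), and 5 had an unadjusted p under 0.05 (7.46%, against 2.5% of all genes). Sema3a was 8.12, 8.17, 8.61 and 8.19 on transgenic arrays against 8.84 and 8.62 on non-transgenic arrays; the groups almost met at 8.61 and 8.62 (-0.46 ± 0.20, adjusted p 1). The 3 sham arrays, at 8.74, 8.32 and 8.91, reached into the transgenic range. Efna1 was 6.13, 6.18, 5.68 and 5.73 on transgenic against 5.53 and 5.55 on non-transgenic arrays (0.39 ± 0.15), and Efna5 8.40, 8.45, 8.04 and 8.04 against 7.90 and 7.87 (0.35 ± 0.15).

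In HC the transgene gave 0 called members (0.00669% of all genes) and 5 at an unadjusted p under 0.05 (7.46%, against 4.41% of all genes). Ephb3 was 7.80, 7.89, 7.93 and 7.73 on transgenic arrays against 7.49 and 7.52 on non-transgenic GFP arrays (0.33 ± 0.08, adjusted p 0.988). The sham arrays, at 7.75, 7.84 and 7.64, were in the transgenic range except for the last, just below it. Slit2 (-0.32 ± 0.13) and Plxnd1 (0.41 ± 0.17) followed. The difference of the transgene effect between regions called 0 members (0% of all genes), with Slit2 (0.53 ± 0.21), Epha10 (-0.37 ± 0.16) and Sema3a (-0.59 ± 0.27) at the smallest unadjusted p.

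Setting all 5 non-transgenic arrays of a region against the transgenic arrays called no member either. For transgenic GFP arrays, 0 members were called in EC (0.0134% of all genes) and in HC (0.0402% of all genes). An unadjusted p under 0.05 was found for 4 members in EC (5.97%, against 4.76% of all genes) and 7 in HC (10.4%, against 4.49% of all genes). They were led by Efna1 (0.37 ± 0.12), Sema3a (-0.41 ± 0.15) and Robo3 (0.38 ± 0.14) in EC and by Epha2 (-0.23 ± 0.07), Ephb3 (0.19 ± 0.06) and Epha10 (0.20 ± 0.08) in HC. For transgenic BDNF arrays, 0 members were called in EC (0.0402% of all genes) and in HC (0.0535% of all genes). Here 5 members in EC (7.46%, against 13.2% of all genes) and 3 in HC (4.48%, against 6.6% of all genes) had an unadjusted p under 0.05. Robo1 had the smallest adjusted p of the members in any comparison within a region (-0.52 ± 0.15 in EC, adjusted p 0.267), followed by Efna1 (0.39 ± 0.12) and Nrp2 (-0.38 ± 0.12). In HC these were Sema3e (0.38 ± 0.09, adjusted p 0.411), Sema4a (0.38 ± 0.10) and Efnb2 (0.34 ± 0.16). The comparisons share arrays, so their like values are not separate observations.

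GFP virus against sham lesion in non-transgenic mice gave 0 called members in EC (0.0201% of all genes) and HC (0.0335% of all genes). At an unadjusted p under 0.05 were 2 members in EC (2.99%, against 2.95% of all genes) and 7 in HC (10.4%, against 9% of all genes). In EC, Unc5b was 6.51 and 6.55 on GFP arrays against 6.77, 6.86 and 6.87 on sham arrays (-0.31 ± 0.10). Sema3g was 4.95 and 5.48 on GFP arrays against 5.53, 5.98 and 5.62 on sham arrays (-0.49 ± 0.18), and Efnb1 differed by -0.30 ± 0.18. In HC, Plxnd1 was 6.68 and 6.33 on GFP arrays against 6.94, 7.04 and 6.92 on sham arrays (-0.46 ± 0.18, adjusted p 0.502). Ephb3 (-0.23 ± 0.08) and Slit1 (-0.25 ± 0.09) were also lower on GFP arrays. Their arrays did not overlap, but groups of 2 and 3 arrays often lie apart by chance. Without hippocampal sham array 1, which stood apart in choroid plexus markers, the differences were -0.47 for Plxnd1, -0.23 for Ephb3 and -0.21 for Slit1, and 0 members were called. The mean of 6 MHC genes was 11.61 and 10.14 on hippocampal GFP arrays against 7.43, 7.05 and 7.41 on sham arrays, and 11.55 and 8.33 on entorhinal GFP arrays against 7.43, 7.97 and 7.62 on sham arrays. Its part in these differences was not tested.

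**Figure D4:**
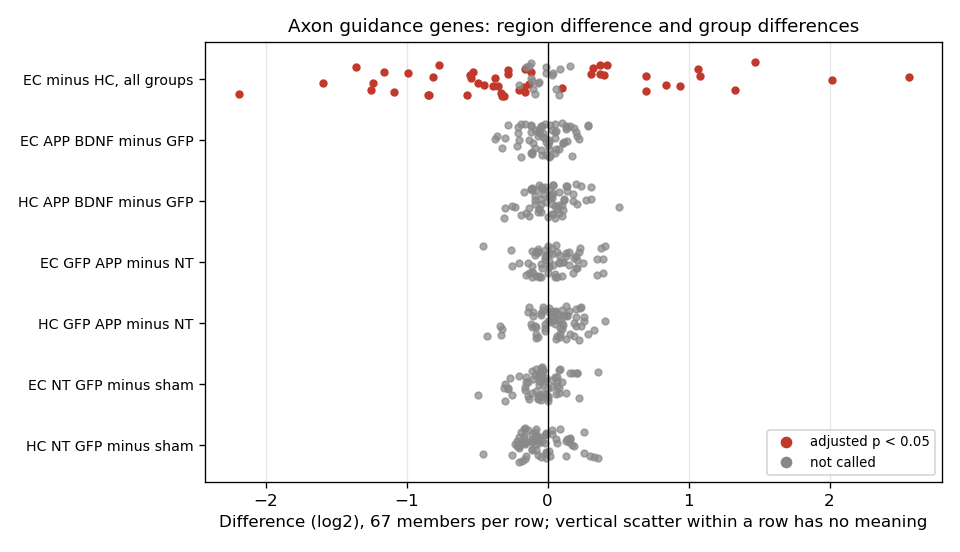
Differences in log2 units for the 67 tested members in the region comparison and in 6 comparisons within a region; red points passed the test and the vertical scatter in a row has no meaning. Region differences run from -2.19 to 2.56, whereas the other rows stay within 0.51 of 0 and hold no called gene.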

How the data were processed

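The authors deposited 1 table of log2 values for 26 arrays and 45101 probe sets, made with RMA per the submitters' processing notes. Array depth has no read count, so the number of arrays limits the precision. RMA compresses differences of dim probe sets and hides changes shared by most genes. Symbols came from the platform annotation (34958 probe sets with 1 symbol, 932 with several, 9211 without an entry), and 34754 were updated through Entrez identifiers (GRCm38.p6).

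Groups came from the labels. Linear models (lmFit and eBayes of limma 3.58.1, run in R 4.3.3, 2-sided, Benjamini-Hochberg over 14941 genes) used the 13 arrays of a region for comparisons within it and all 26 arrays between regions. The code was tested on simulated data. Python 3.11.15 and matplotlib 3.10.9 drew the figures.

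The members, gene lists and comparisons were chosen with earlier results of these data known. Named were, between regions, up to 8 members per direction with the largest difference among those called with arrays apart, elsewhere the 3 with the smallest p, preset partner sets, and the 4 leading pathway genes per direction. Other genes named show a family's range and were chosen after their values were seen. Alternatives covered the filter, probe set choice, scaling, array weights, covariates, a replicate block and leaving out arrays.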

Additional observations from a re-analysis of the deposited data

Results flagged for a closer look

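Within the groups of 4 arrays, 1 array lay far from the other 3 in 7 of 176 groups tested over 44 members (gap over range above Dixon's critical value); chance flags about 1 in 20 groups. Efna1 was 5.74 on EC APP BDNF array 2 and 6.01 to 6.03 on the others. Slit2 was 8.0 on EC APP BDNF array 1 and 8.36 to 8.38 on the others, and Unc5b 6.92 on EC APP BDNF array 2 and 6.64 to 6.69 on the others. Sema3a was 8.61 on EC APP GFP array 3 and 8.12 to 8.19 on the others, and Sema3g 5.72 on EC APP GFP array 2 and 5.54 to 5.55 on the others. In hippocampus, Epha6 was 8.72 on APP BDNF array 4 and 8.43 to 8.45 on the others, and Ephb1 8.27 on APP GFP array 2 and 7.92 to 7.97 on the others.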

How the results depend on the processing

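With the myelin list mean as a covariate, 11 members were higher and 21 lower in EC over all groups (17 and 32 without it), and 10 were higher in transgenic mice (17 without it). The 15 members named for the region difference kept their direction and call under all 37 alternatives, but not their size: Sema5a ranged from -2.37 to -0.83, Ntng1 from 0.81 to 1.58, Efna5 from 0.50 to 1.19, Efnb2 from 0.50 to 1.12, Sema6a from 0.30 to 0.74, Plxna1 from -1.02 to -0.54, Sema3e from -1.78 to -1.03 and Plxnc1 from 0.60 to 0.98. Leaving out 1 array at a time gave 16 to 17 members higher and 29 to 36 lower in EC, and 0 members in every comparison of treatment, genotype or their difference between regions. A mean over all probe sets of a gene called 47 members, kept 45 of the 49 calls and turned the sign of Epha3. Plxna3 and Plxna4 gained a call with it. 3 arrays stood apart in markers: EC APP BDNF array 3, EC NT GFP array 2 and HC NT sham array 1. The first 2 had myelin means of 7.76 and 8.03, against 8.68 to 9.57 on the other EC arrays. EC NT GFP array 2 is 1 of only 2 arrays in its group. Without these 3 arrays, 46 calls were kept, and those of Epha3, Plxnb2 and Sema4f were lost. Epha1, Ntng2, Sema3b and Sema3f gained a call. With replicate numbers as a block, 16 members were higher and 31 lower, and the within-region comparisons still called 0. The labels do not say whether the numbers pair the samples, and the correlations cannot settle it. Deviations of arrays with the same number correlated between -0.25 and 0.39 within a region (16 pairs). Between regions they correlated between -0.49 and 0.48 (13 pairs). Arrays of the 2 regions were on the same side of an Xist value of 7 for 2 of 8 transgenic numbers. For the other transgenic numbers they lay on opposite sides, as for APP GFP number 1 (5.45 in EC and 11.01 in HC). By Xist, such arrays came from different animals, so in the region comparison the block joined different animals for those numbers. Xist was high on all non-transgenic arrays, so it cannot tell there.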

Other observations

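A group of 6 members was lowest of all 13 entorhinal arrays on BDNF array 1, by 0.30 or more below the next array. Unc5d was 8.57 there and 9.17 to 10.13 on the others, Robo1 7.61 and 8.14 to 8.80, and Sema5a 5.79 and 6.29 to 6.81. Sema4c was 5.96 there and 6.30 to 6.95 on the others, Sema6a 6.59 and 6.91 to 7.29, and Plxna2 9.04 and 9.34 to 9.54. No other array was the extreme of its region by that margin in more than 2 members in a single direction. The myelin list mean of this array, 9.57, was the highest in EC, and its part in these values was not tested.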
